A study of Mus musculus with 8 samples.

Results

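The 9 genes Serpina12, Dmbt1, Dct, Cap1, Mmd2, Rdh9, Tmem71, Extl1 and Bche were followed across the livers of mice with and without the nuclear receptor SHP (encoded by Nr0b2), in a lean and in a leptin-null background. They were selected on the measured SHP differences of these same arrays, and they are 9 of the 12393 genes measured. The array annotation assigns 13 probe sets to exactly 1 of these symbols. The brightest probe set, by its mean over the 8 arrays, stands for each gene, and the further probe sets of Serpina12, Cap1, Mmd2 and Bche served as a check. The 8 Affymetrix arrays of liver RNA comprise 4 genotypes with 2 arrays each. The groups were wild-type mice, SHP-/- mice (SHP knockout), OB-/- mice (leptin knockout) and OB-/-/SHP-/- mice (leptin/SHP double knockout), all on a C57BL background and fed standard chow. The labels give neither age, sex nor the number of animals behind an array. Since separate animals are not stated for replicate arrays, errors and p-values measure the spread between these arrays, which may be technical.

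SHP has a ligand-binding domain but no DNA-binding domain, and it acts by binding other nuclear receptors, among them Nr5a2 and Hnf4a, and lowering their activity at target genes. In liver it is best known for restraining bile acid synthesis. Leptin is the fat-tissue hormone that restrains feeding, and mice without it are obese with fatty livers. The 9 genes have unlike roles. Serpina12 encodes vaspin, a secreted inhibitor of the serpin family that inhibits the protease Klk7 and is known as an adipokine, and Dmbt1 encodes a secreted scavenger receptor cysteine-rich (SRCR) glycoprotein of mucosal surfaces. Dct (dopachrome tautomerase) is an enzyme of melanin synthesis, Rdh9 a short-chain dehydrogenase that oxidises cis-retinols and hydroxysterols, Extl1 a glycosyltransferase of heparan sulfate synthesis, and Bche the serum cholinesterase secreted by liver. Cap1 binds actin and speeds the turnover of its filaments, and Mmd2 is a membrane protein of the progestin and adipoQ receptor (PAQR) family. For Tmem71, which encodes a transmembrane protein, no role is given here.

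The genes lie on 8 chromosomes, Serpina12 on 12, Dmbt1 on 7, Dct on 14, Mmd2 on 5, Rdh9 on 10, Tmem71 on 15, Bche on 3, and Cap1 and Extl1 both on 4, which also carries Nr0b2. RefSeq (GRCm38.p6) gave a promoter for 7 of the 9 genes, and the 250 bases before the start were searched on both strands for a pair of motifs of receptors that SHP represses. AAGGTCA, the extended half-site of the kind bound by Nr5a2, was found in 0 of the 7 promoters and in 4.08% of the 32851 promoters in the table. AAAGTCC, the core of the element bound by Hnf4a, was found in 2 of the 7, those of Extl1 and Bche, and in 3.58% of all promoters. In Extl1 the match begins at position -226 from the start, and in Bche the matches begin at -130 and -66, with no overlap between motifs. The promoters below are that of Serpina12, the gene with the largest difference common to both leptin backgrounds, and the pair that holds the motif. Each reads 5′ to 3′ on the strand of the gene, with matches to AAAGTCC in capitals. Their positions (GRCm38.p6, all on the minus strand) are chr12:104044444-104044693 for Serpina12, chr4:134372548-134372797 for Extl1 and chr3:73708416-73708665 for Bche. A match describes the letters alone, and no match says only that these letters are not in this window.
Serpina12: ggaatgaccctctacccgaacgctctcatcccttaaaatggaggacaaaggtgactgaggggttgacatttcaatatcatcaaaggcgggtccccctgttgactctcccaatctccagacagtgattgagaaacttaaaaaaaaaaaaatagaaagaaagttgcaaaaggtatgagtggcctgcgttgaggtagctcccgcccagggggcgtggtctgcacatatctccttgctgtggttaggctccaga
Extl1: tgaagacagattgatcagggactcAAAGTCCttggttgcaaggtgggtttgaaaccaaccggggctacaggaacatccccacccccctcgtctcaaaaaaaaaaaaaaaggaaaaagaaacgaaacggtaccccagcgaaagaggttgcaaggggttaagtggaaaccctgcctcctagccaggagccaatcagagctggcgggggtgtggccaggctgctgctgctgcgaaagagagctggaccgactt
Bche: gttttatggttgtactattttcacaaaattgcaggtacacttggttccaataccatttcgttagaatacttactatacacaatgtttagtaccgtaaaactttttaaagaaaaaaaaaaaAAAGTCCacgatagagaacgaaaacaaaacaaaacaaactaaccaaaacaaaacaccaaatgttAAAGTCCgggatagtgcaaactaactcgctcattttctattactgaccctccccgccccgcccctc

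Values are expression as deposited, read as log2, where a difference of 1 is a factor of 2 in linear signal. The array medians lay between 5.45 and 5.56. The hepatocyte marker Alb (albumin) read between 13.87 and 14.07 on all 8 arrays. Arrays of 1 genotype correlated across genes at r between 0.992 and 0.995. Wild-type arrays stood apart in RNA quality. Gapdh signal at the 3' end exceeded that at the 5' end, an offset that grows as RNA degrades, by 0.79 and 1.00 on the wild-type arrays, 0.19 and 0.35 on the SHP-/- arrays, -0.07 and -0.01 on the OB-/- arrays and 0.03 and 0.11 on the double-knockout arrays. Xist, which marks female tissue, read 7.41 on OB-/- replicate 1 and at most 4.70 on the other 7 arrays. The summed signal of 7 macrophage markers was lowest in wild-type (9.79 and 9.81), uneven in SHP-/- (11.05 and 10.19) and between 11.10 and 11.40 on the leptin-null arrays. The summed signal of 7 pancreatic acinar markers was highest on the OB-/- arrays, at 9.38 and 8.70 against 6.78 to 6.86 on the leptin-intact arrays. The brightest there were Prss2 (7.87 and 7.00) and Clps (7.95 and 7.15). For 4 of the 7 markers all arrays lay below the median of all values.

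**Figure D1:**
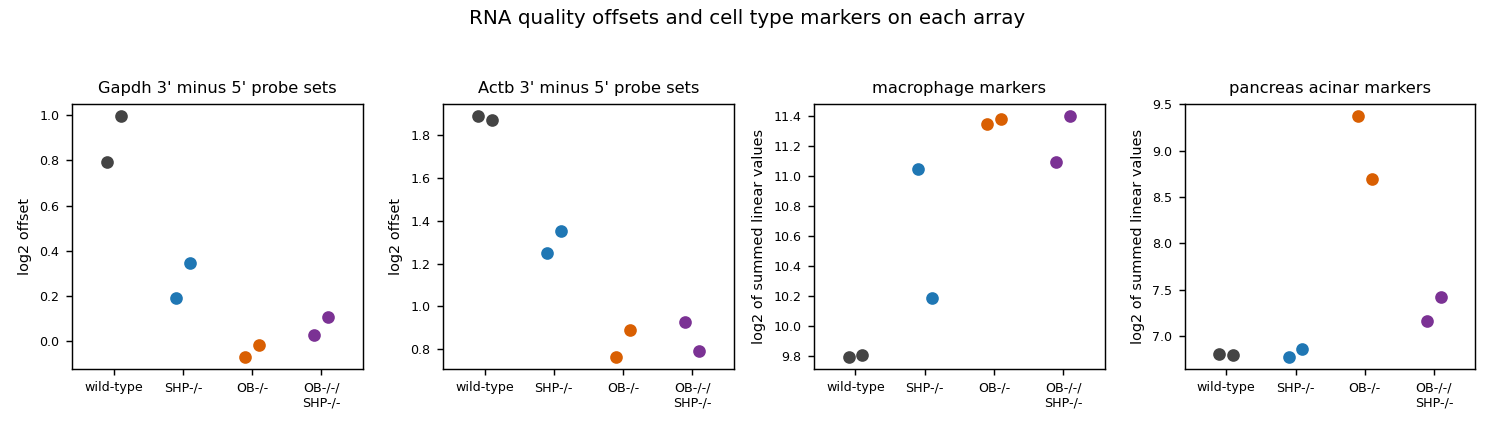
Log2 offsets between the 3' and 5' probe sets of Gapdh and Actb, and the log2 of the summed linear values of 7 macrophage and 7 pancreas acinar markers, 1 point per array for the 4 genotypes. Both wild-type arrays have the largest offsets and the lowest macrophage sums, and both OB-/- arrays have the highest pancreas sums.

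Nr0b2, the targeted gene, read 8.74 and 8.71 on the wild-type arrays, 7.78 and 8.31 on the SHP-/- arrays, 8.01 and 8.01 on the OB-/- arrays and 7.11 and 6.66 on the double-knockout arrays. It was lower in both genotypes without SHP than in their controls, yet its signal stayed above the array median. The position of its probe set relative to the deletion is unknown, so these values do not check the knockout. The limma difference was -0.68 ± 0.19 (SE) in leptin-intact liver (adjusted p = 0.286), and Nr0b2 fell by 1.13 ± 0.19 in leptin-null liver (adjusted p = 0.0108).

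The first question is how each gene stood with and without SHP in each leptin background. The contrasts SHP-/- minus wild-type and OB-/-/SHP-/- minus OB-/- chose the genes, so their differences are a description with no test. A gene was called at a limma p below 0.05 after Benjamini-Hochberg adjustment over all genes. All 9 were among the genes called in leptin-intact liver, where 0.323% of all genes were, and 6 of 9 among those called in leptin-null liver, where 2.14% were. Without SHP, Serpina12 and Dmbt1 stood lower (0.0968% of all genes were called lower) and the other 7 stood higher (0.226% of all genes) in leptin-intact liver. In leptin-null liver the 9 split: 6 kept a difference of 0.83 or more in size that passed, 5 of them higher (1.26% of all genes) and Serpina12 lower (0.88%), and Dmbt1, Dct and Bche did not pass. The median difference over the 9 genes was 1.33 and 0.94, beside -0.03 and 0.01 over all genes. The calls leaned on single arrays, with 3 of the 9 left in leptin-intact liver without wild-type replicate 1 and 5 without wild-type replicate 2. In leptin-null liver 3 were left without OB-/- replicate 2.

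**Figure D2:**
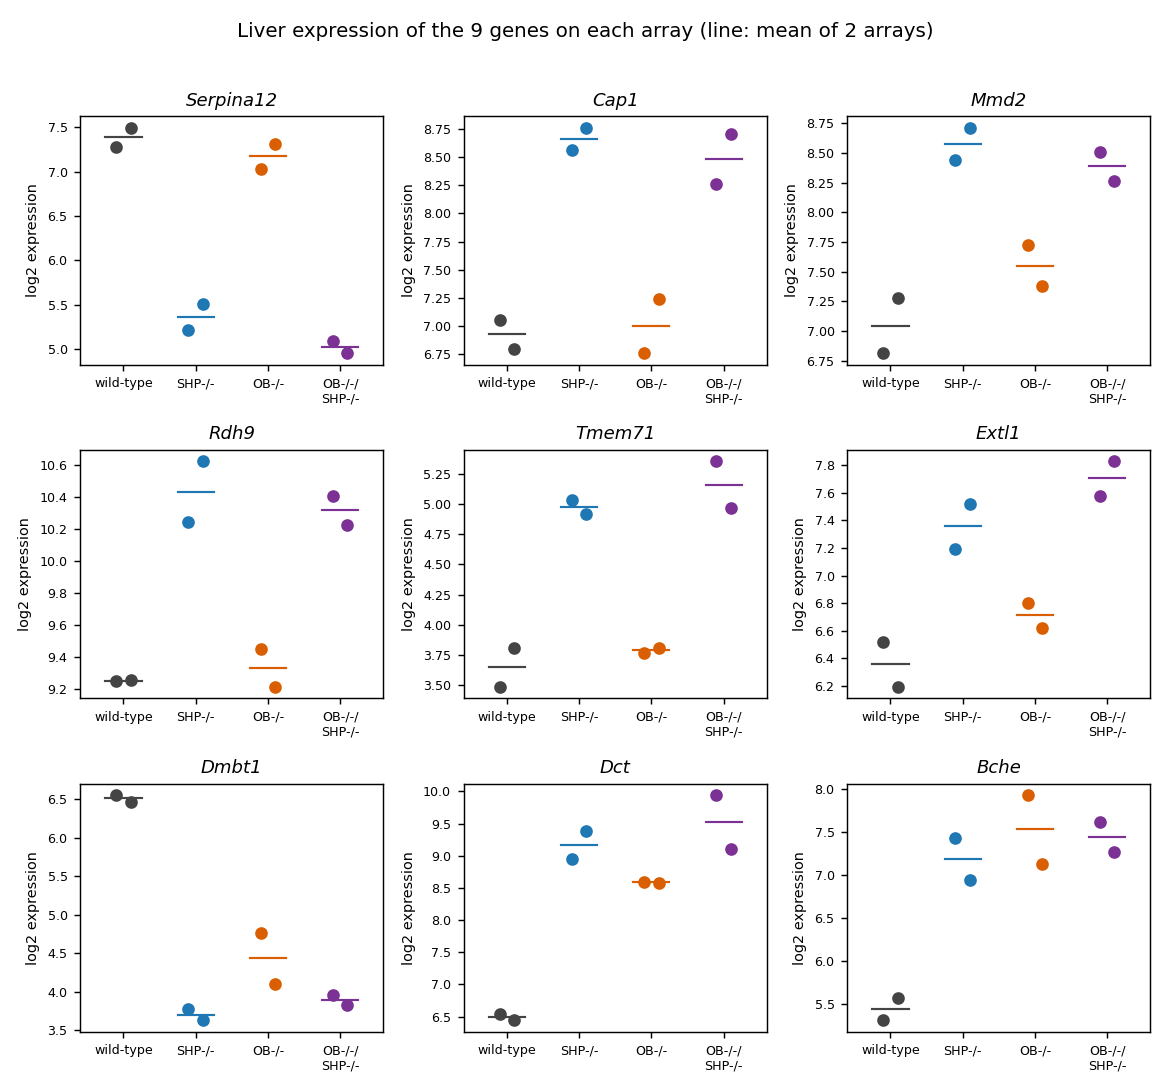
Log2 expression (y axis, its own scale in each panel) of the 9 genes on each array (points) by genotype (x axis), with the mean of 2 arrays as a line. In the upper 6 panels both genotypes without SHP stand apart from both genotypes with SHP. In the panels of Dmbt1, Dct and Bche the wild-type arrays stand apart from the other 6 arrays.

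Serpina12 read 7.27 and 7.49 on the wild-type arrays, 5.22 and 5.51 on the SHP-/- arrays, 7.03 and 7.31 on the OB-/- arrays and 5.09 and 4.95 on the double-knockout arrays. All 4 arrays without SHP lay below all 4 arrays with SHP, and the replicates of a genotype differed by at most 0.30. The gene was 4.06-fold lower without SHP in leptin-intact liver (-2.02 ± 0.16 on the log2 scale) and 4.44-fold lower in leptin-null liver (-2.15 ± 0.16). These differences differed from each other by -0.13 ± 0.23, less than the error. The further Serpina12 probe set was dim, between 2.95 and 3.64 on all arrays, and showed -0.40 and -0.04. The finding for vaspin therefore rests on 1 probe set.

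Of the actin regulator Cap1, wild-type arrays read 7.06 and 6.80, SHP-/- arrays 8.56 and 8.76, OB-/- arrays 6.76 and 7.24 and OB-/-/SHP-/- arrays 8.26 and 8.70. Groups with and without SHP did not overlap, and the difference was 1.73 ± 0.20 in leptin-intact and 1.48 ± 0.20 in leptin-null liver. The further Cap1 probe set gave 2.24 and 1.504, with all 4 arrays without SHP again on top.

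Mmd2 of the PAQR family read 6.81 and 7.28 on the wild-type arrays, 8.44 and 8.71 on the SHP-/- arrays, 7.72 and 7.38 on the OB-/- arrays and 8.51 and 8.27 on the double-knockout arrays. Its level without SHP was alike in both backgrounds, while OB-/- lay above wild-type, so that the SHP difference was 1.53 ± 0.19 in leptin-intact and 0.83 ± 0.19 in leptin-null liver. The further Mmd2 probe set gave 1.40 and 0.85. With 0.83, Mmd2 had the smallest difference of the 6 genes that passed in leptin-null liver, and Dct, at 0.94 ± 0.24 with a wider replicate spread, was the nearest gene outside.

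Rdh9 was bright throughout, at 9.25 and 9.26 on the wild-type arrays, 10.24 and 10.62 on the SHP-/- arrays, 9.45 and 9.21 on the OB-/- arrays and 10.41 and 10.23 on the double-knockout arrays. Its SHP difference was 1.18 ± 0.16 in leptin-intact and 0.98 ± 0.16 in leptin-null liver. The Rdh9 probe set is of a type (s_at) that can match several transcripts, and near-identical relatives lie beside Rdh9 on the same chromosome, so part of its signal may be theirs. Among those neighbours, Rdh16f2 differed by 0.53 ± 0.19 in leptin-intact liver and rose by 0.88 ± 0.19 in leptin-null liver (limma adjusted p = 0.0413), and Rdh1 and Rdh16 were not called with SHP loss in either background.

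Tmem71 was dim with SHP present, at 3.49 and 3.81 in wild-type and 3.77 and 3.81 in OB-/-. Without SHP it read 5.03 and 4.92 in leptin-intact and 5.35 and 4.97 in leptin-null liver, still below the array median. The difference was 1.33 ± 0.17 and 1.37 ± 0.17, or 2.51-fold and 2.59-fold, with no overlap between arrays with and without SHP.

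Extl1 read 6.52 and 6.19 on the wild-type arrays, 7.20 and 7.52 on the SHP-/- arrays, 6.80 and 6.62 on the OB-/- arrays and 7.58 and 7.83 on the double-knockout arrays. It had the smallest difference of the 9 in leptin-intact liver, 1.00 ± 0.17, and nearly the same in leptin-null liver, 0.99 ± 0.17. Both leptin-null genotypes lay above their leptin-intact counterparts by 0.35, so that the 4 genotypes formed 4 steps without overlap.

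**Figure D3:**
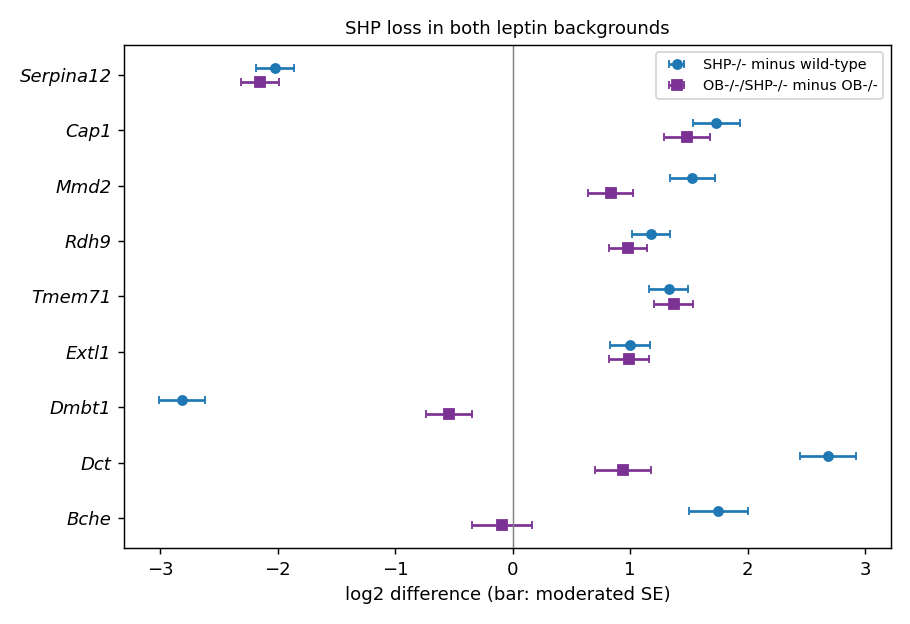
Log2 difference (x axis) with SHP loss for each gene (y axis), in leptin-intact liver (circles) and in leptin-null liver (squares), with moderated SE as bars. Serpina12, Cap1, Rdh9, Tmem71 and Extl1 have pairs whose bars meet, whereas Dmbt1, Dct and Bche have leptin-null values much nearer to 0.

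For Dmbt1, Dct and Bche the wild-type arrays stood apart from the other 6, while the order of the other 3 genotypes differed between the genes. Dmbt1 read 6.56 and 6.47 on the wild-type arrays, 3.78 and 3.63 on the SHP-/- arrays, 4.77 and 4.10 on the OB-/- arrays and 3.96 and 3.83 on the double-knockout arrays. It was 7.03-fold lower without SHP in leptin-intact liver (-2.81 ± 0.19) and 1.46-fold lower in leptin-null liver (-0.54 ± 0.19), where its OB-/- replicates differed by 0.67. Without OB-/- replicate 1 the leptin-null difference was -0.21, and without OB-/- replicate 2 it was -0.88.

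Dct read 6.54 and 6.44 on the wild-type arrays, 8.95 and 9.39 on the SHP-/- arrays, 8.60 and 8.58 on the OB-/- arrays and 9.95 and 9.10 on the double-knockout arrays. Both wild-type arrays lay far below the other 6, and the difference with SHP loss was 2.68 ± 0.24 in leptin-intact and 0.94 ± 0.24 in leptin-null liver. The leptin-null value was 0.52 without OB-/-/SHP-/- replicate 1 and 1.36 without OB-/-/SHP-/- replicate 2.

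Bche read 5.31 and 5.57 on the wild-type arrays, 7.44 and 6.95 on the SHP-/- arrays, 7.93 and 7.13 on the OB-/- arrays and 7.62 and 7.27 on the double-knockout arrays. The 3 genotypes that lack SHP, leptin or both overlapped, and all of their arrays lay above wild-type. Its SHP difference was 1.75 ± 0.25 in leptin-intact and -0.09 ± 0.25 in leptin-null liver, and the further Bche probe set gave 2.57 and 0.10. The leptin-null difference of the chosen probe set was 0.31 without OB-/- replicate 1 and -0.49 without OB-/- replicate 2, so its sign rested on single arrays.

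The split can be described by where OB-/- stood on the log2 path from wild-type to SHP-/-. For Dmbt1 the OB-/- mean had covered 73.9% of that path, for Dct 78.1% and for Bche 119%. The leptin-null minus leptin-intact difference of SHP effects, which the choice of genes used and which 0.549% of all genes passed, was 2.27 ± 0.27 for Dmbt1, -1.74 ± 0.34 for Dct and -1.84 ± 0.36 for Bche. For the other 6 genes the OB-/- mean had covered between 4.06% (Cap1) and 35.4% (Extl1). The probe sets of Cap1 disagreed here, as the further one gave 49.2%, and the further probe sets of Mmd2 and Bche gave 40.1% and 110%. These shares use the wild-type arrays and the contrast that chose the genes, so they are a description. The 3 genes move with the traits in which wild-type stood apart, the Gapdh offset (means of 0.90 for wild-type, 0.27 for SHP-/-, -0.04 for OB-/- and 0.07 for the double knockout) and the macrophage sums, whose part in these values was not tested. Nr0b2 itself also read lower in OB-/- (8.01 on both arrays) than in wild-type, and its part was likewise not tested.

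Leptin loss was the second question, tested as its mean over both SHP states. The weights of this contrast are orthogonal to both SHP contrasts, which separates it from the choice of genes for random array error only. An offset common to both wild-type arrays would enter both the choice and this test. The contrast also shares their residual variance. Of the 9 genes 3 passed in limma, 2 higher and 1 lower, where 26.4% of all genes passed (12.4% higher and 14% lower). That share is near the background, and the median over the 9 genes was 0.16, beside 0.02 over all genes. Dct rose by 1.22 ± 0.17 (adjusted p = 0.000397), Bche rose by 1.17 ± 0.18 (adjusted p = 0.000732) and Dmbt1 fell by 0.94 ± 0.14 (adjusted p = 0.00056). All 3 calls were kept with any single array left out, with adjusted p up to 0.00406 for Dct, 0.00738 for Bche and 0.00518 for Dmbt1. The means came mostly from mice with SHP: OB-/- minus wild-type was 2.09 for Dct, 2.09 for Bche and -2.08 for Dmbt1, whereas OB-/-/SHP-/- minus SHP-/- was 0.35, 0.25 and 0.19. Those single contrasts share arrays with the contrasts that chose the genes and are given as values. In these 3 genes the wild-type arrays stood apart, and leaving out 1 array does not remove an offset that both share. The part of such an offset in the 3 calls was not tested.

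**Figure D4:**
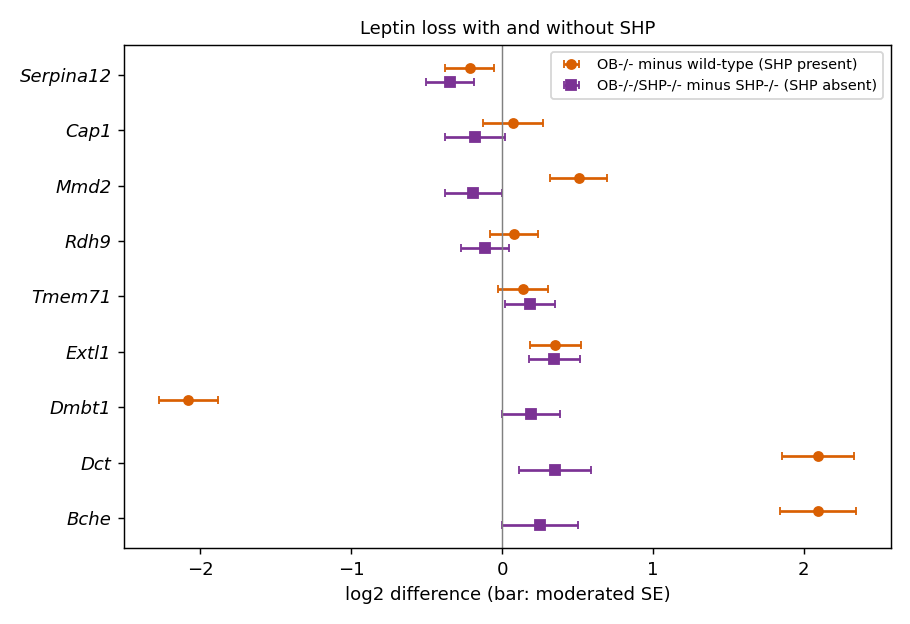
Log2 difference (x axis) with leptin loss for each gene (y axis), with SHP present (circles) and SHP absent (squares), and moderated SE as bars. Dct and Bche lie near 2 and Dmbt1 near -2 with SHP present, and all squares lie between -0.34 and 0.35.

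The other 6 genes did not pass for leptin. Serpina12 differed by -0.28 ± 0.11 (limma adjusted p = 0.0942, 95% interval -0.53 to -0.03) and Extl1 by 0.35 ± 0.12 (adjusted p = 0.0529, interval 0.08 to 0.61). Extl1 passed narrowly under several alternatives, among them quantile normalisation (adjusted p = 0.0226) and leaving out wild-type replicate 1 (adjusted p = 0.046). Its adjusted p ranged from 0.0331 to 0.181 with 1 array left out. Intervals were -0.36 to 0.25 for Cap1, -0.27 to 0.23 for Rdh9, -0.14 to 0.45 for Mmd2 and -0.09 to 0.42 for Tmem71. Cap1 is uncertain here, since its further probe set gave 0.73 (adjusted p = 0.00181).

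Over 9 lists of genes from the families and pathways around the 9 genes, 1 of 100 measured genes passed with SHP loss in leptin-intact liver (1%, against 0.323% of all genes). In leptin-null liver 6 of 100 passed (6% against 2.14%), and with leptin loss 37 of 100 (37% against 26.4%). At these shares a count of 0 in a single list is close to the background. Medians over the lists lay between -0.11 and 0.23 in leptin-intact and between -0.28 and 0.30 in leptin-null liver. Clade A serpins, relatives of Serpina12, had 7 members measured, of which 0 passed in leptin-intact liver (1 at an unadjusted limma p below 0.05) and Serpina3n, an acute phase protease inhibitor, rose by 0.90 ± 0.18 in leptin-null liver (adjusted p = 0.025). With leptin loss 3 fell: Serpina3n by 0.90 ± 0.13, Serpina10 by 0.65 ± 0.11 and Serpina1c by 0.30 ± 0.09. Of the vaspin partners, the protease Klk7 read between 4.75 and 5.19 and did not pass in any of the 3 contrasts, and the chaperone Hspa5, reported to bind vaspin at the cell surface, fell by 0.81 ± 0.10 with leptin loss alone.

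Of 11 SRCR proteins, the family of Dmbt1, 0 passed in leptin-intact liver (3 at an unadjusted p below 0.05), and the macrophage receptor Marco rose by 1.60 ± 0.35 in leptin-null liver (limma adjusted p = 0.0415). With leptin loss Cd5l (1.46 ± 0.22) and Lgals3bp (0.58 ± 0.12) rose, and the ferritin receptor Scara5 fell by 2.75 ± 0.27. Melanin synthesis, the pathway of Dct, had 8 other genes measured, and 0 passed with SHP loss in either background (0 also at an unadjusted limma p below 0.05), with medians of -0.06 and 0.01. Tyr (tyrosinase), the first enzyme of the pathway, read between 3.71 and 4.21 on all arrays, and the transporter Slc45a2 rose by 0.43 ± 0.13 with leptin loss.

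Among 21 other retinoid genes, 0 passed in leptin-intact liver (2 at an unadjusted p below 0.05), and Rdh16f2 alone rose in leptin-null liver. Leptin loss called 9 of the 21, where 26.4% of all genes were called, 5 higher and 4 lower, among them Rdh11 (1.13 ± 0.10), the retinal dehydrogenase relative Aldh1a7 (1.33 ± 0.12) and Hsd17b6, a steroid dehydrogenase related to Rdh9 (fell by 2.27 ± 0.18). Rdh9 itself lay at -0.02 ± 0.11. Of 20 heparan sulfate genes beside Extl1, 0 passed in leptin-intact liver (0 also unadjusted), and the core protein Sdc4 rose by 1.87 ± 0.20 in leptin-null liver (limma adjusted p = 0.00038). With leptin loss Sulf2, which removes sulfates, rose by 0.75 ± 0.13, Sdc2 fell by 0.72 ± 0.11 and Sdc4 fell by 1.13 ± 0.14, among 2 higher and 5 lower. The mean for Sdc4 came mostly from mice with SHP. It read 10.79 and 11.05 in wild-type and 9.10 and 8.81 in OB-/-. Without SHP it read 11.20 and 11.01 in SHP-/- and 11.11 and 10.53 in OB-/-/SHP-/-.

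Esterases had 12 members measured beside Bche. The carboxylesterase Ces1g rose by 1.23 ± 0.17 with SHP loss in leptin-intact liver (limma adjusted p = 0.0105), and Ces1e fell by 0.88 ± 0.14 in leptin-null liver (adjusted p = 0.0069). Both also rose with leptin loss, by 2.27 ± 0.12 and 1.07 ± 0.10, with Ces2e at 1.49 ± 0.11, among 5 higher and 1 lower. Ces1g read 7.68 and 7.54 on the wild-type arrays, 8.79 and 8.89 on the SHP-/- arrays, 10.74 and 10.60 on the OB-/- arrays and 10.56 and 10.07 on the double-knockout arrays, with wild-type lowest as for Bche. The acetylcholine-specific esterase Ache read between 4.13 and 4.74 and did not pass. Of 14 actin turnover genes beside Cap1, 0 passed with SHP loss in either background (2 in each at an unadjusted limma p below 0.05), and leptin loss raised 4 and lowered 1, with Tmsb4x at 0.85 ± 0.14, Actb at 0.71 ± 0.11 and Dstn at 0.66 ± 0.13. Of 5 PAQR genes beside Mmd2, its close relative Mmd did not pass, Paqr7 fell by 0.95 ± 0.14 in leptin-null liver (adjusted p = 0.00463), and Adipor2 (0.58 ± 0.09) and Paqr4 (0.47 ± 0.09) rose with leptin loss.

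Markers of other cell types that can express these genes were set beside them. In bulk tissue, fewer cells of a type and less RNA per cell cannot be told apart. Bile duct markers, relevant to Dmbt1, were below the median of all values (5.50) on all arrays for 7 of 7 genes. Their summed signal was 6.92 to 7.04 in wild-type, 7.02 to 7.06 in SHP-/-, 6.93 to 6.96 in OB-/- and 7.06 to 7.12 in OB-/-/SHP-/-, and 0 passed with SHP loss (unadjusted limma p, 0 in leptin-intact and 1 in leptin-null liver). With leptin loss Sox9 fell by 0.54 ± 0.14 and Prom1 rose by 0.82 ± 0.13. Gut epithelium sums were 10.38 to 10.44, 9.95 to 10.37, 11.05 to 11.15 and 10.86 to 11.32 in the same order. They were mostly the signal of Fabp2, at 9.72 to 11.23, whereas Lgals4 read between 5.53 and 6.64. For 4 of these 6 genes all arrays lay below the median. Pancreas sums, 6.79 to 6.80, 6.78 to 6.86, 8.70 to 9.38 and 7.17 to 7.42, with the trypsinogen Prss2 among them, were highest in OB-/-, where Dmbt1 was 4.23-fold below wild-type. Of the 7 acinar markers 5 rose with leptin loss and 3 fell with SHP loss in leptin-null liver. Melanocyte sums were 7.57 to 8.12, 7.56 to 7.66, 7.70 to 8.03 and 7.72 to 7.88, with Sox10 among them. For 5 of these 7 markers all arrays lay below the median, and 0 passed with SHP loss (unadjusted, 1 in leptin-intact and 0 in leptin-null liver). Adipocyte sums, relevant to the adipokine Serpina12, were 7.12 to 7.31, 6.35 to 6.53, 8.21 to 8.37 and 7.93 to 8.01, with Pparg among them and the defining Adipoq between 2.79 and 3.07 on all arrays. Pparg fell with SHP loss in leptin-intact liver, by 1.36 ± 0.18 (limma adjusted p = 0.00942), and rose by 1.75 ± 0.13 with leptin loss. Its SHP difference in leptin-null liver, -0.51 ± 0.18, did not pass (adjusted p = 0.231). Adipoq (-0.01), Retn (-0.15) and Lep (0.04) were not called with SHP loss in leptin-intact liver. The hepatocyte sums lay between 15.78 and 15.92 on all arrays. Of 7 macrophage markers, Cd5l among them, 0 passed with SHP loss in leptin-intact liver but 6 had an unadjusted limma p below 0.05 there, where their median difference was 0.83, and 6 rose with leptin loss. The part of other cell types in the 9 genes was not tested.

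Genes with the most similar pattern were found by the root mean square difference between log2 values centred on each gene's mean over the 8 arrays. Nearest to Serpina12 were the deiodinase Dio1 at 0.31, the cytochrome Cyp2f2 at 0.52 and the glucuronosyltransferase Ugt2b38 at 0.61. Ugt2b38 was also nearest to Dmbt1, at 0.56, followed by the prostaglandin transporter Slco2a1 (0.64) and the phosphodiesterase Pde4b (0.66). Nearest to Dct were Orm3 (0.46), Tmem267 (0.47) and Niban2 (0.54), and nearest to Bche were Tmem267 (0.32), Mia2 (0.34) and Prkar2a (0.41). Some of the 9 genes were among each other's nearest: Mmd2 and Rdh9 were each other's nearest gene at 0.20, followed for Rdh9 by Dnase2a (0.24), and Tmem71 had Rdh9 (0.24), Mmd2 (0.25) and Tnfrsf14 (0.28). Cap1 had Tmem71 (0.34), Csad (0.35) and Rdh9 (0.37) beside it, and Extl1 had Hyi (0.18), Litaf (0.21) and Dmgdh (0.22). The measure uses the contrasts that chose the genes and describes these 8 arrays only.

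Position was the last property compared, after the values had been seen. Of the 11 genes called in the same direction with SHP loss in both backgrounds, 3 lie on chromosome 4 with Nr0b2: Cap1, Dio1 and Extl1. Of the 11, 6 belong to the 9 genes, Cap1 and Extl1 among them, so this count depends on the choice. Of the 12393 genes measured, the chromosome holds 200 within 100 on each side of Nr0b2 and 538 others. In the order of measured genes along the chromosome (GRCm38.p6), Extl1 was 13 genes from Nr0b2 and Cap1 105 genes away on the other side. Among the 200 measured genes within 100 on each side of Nr0b2, 2 were called in leptin-intact liver (1% against 0.323% of all genes), Extl1 and Stmn1, and 8 in leptin-null liver (4% against 2.14%). On the rest of the chromosome 3 of 538 genes (0.558%) and 16 of 538 (2.97%) were called. Extl1 is in both counts of the window and Cap1 in both counts of the rest. Both genes were chosen on these contrasts, so the shares are a description. The labels give the same strain for all mice and say nothing of the chromosome around the deleted gene, and the part of linkage to Nr0b2 in the values of Extl1 and Cap1 was not tested.

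**Figure D5:**
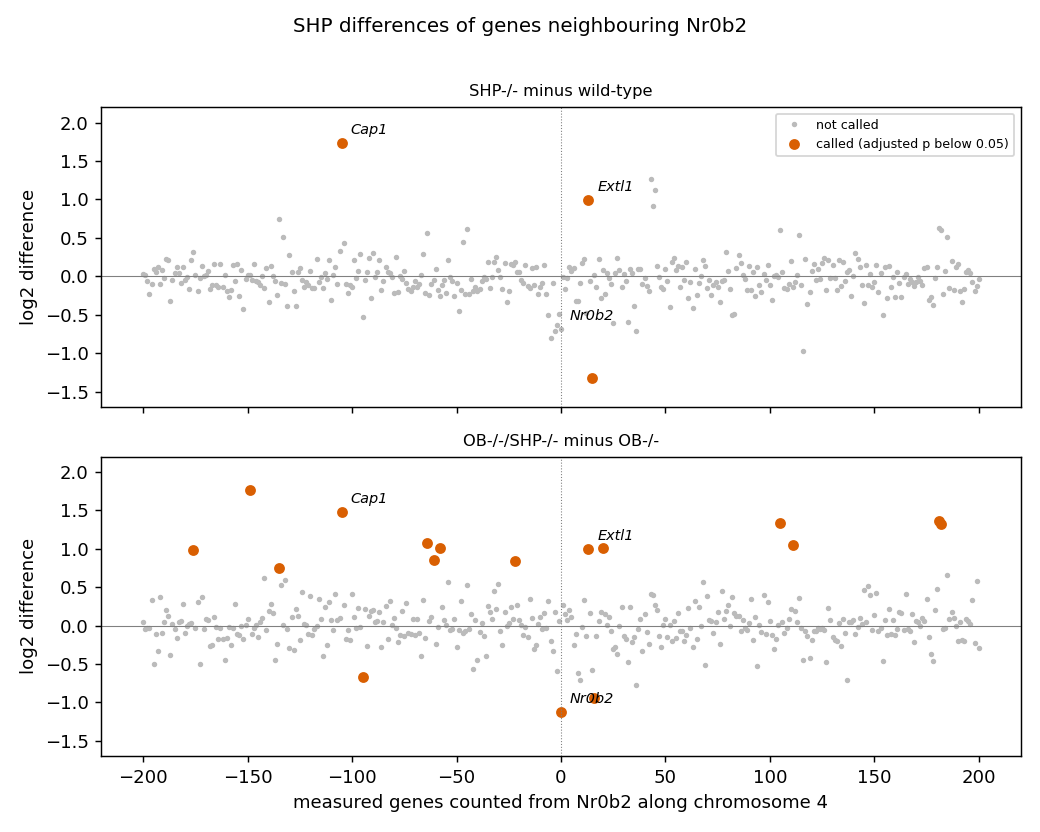
Log2 difference with SHP loss (y axis) of measured genes by their order from Nr0b2 on chromosome 4 (x axis), in leptin-intact (upper panel) and leptin-null liver (lower panel), with called genes in orange. Extl1 lies 13 genes from Nr0b2, and Cap1 lies 105 genes away on the other side.

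Of the 36 measured genes within 2 places of the 9 genes, 1 was called in leptin-intact liver (2.78% against 0.323% of all genes) and 1 in leptin-null liver (2.78% against 2.14%). Stmn1, beside Extl1, fell by 1.33 ± 0.14 in leptin-intact liver, opposite to Extl1, and Rdh16f2, beside Rdh9, rose in leptin-null liver. The serpins beside Serpina12, Serpina1b, Serpina1c, Serpina5 and Serpina3a, differed by between -0.08 and -0.02 in leptin-intact liver and by between -0.12 and 0.30 in leptin-null liver, where Serpina12 differed by -2.02 and -2.15.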

How the data were processed

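Per the labels' protocols, total liver RNA was isolated with Tri-reagent and biotin-labelled. The authors deposited log2 values, 1 per probe set and array, and the submitters' processing notes name R 2.15.0. How background was corrected and probes summarised, and which log base was used, is not given in the sources used here. The range, 2.20 to 14.19, fits base 2, and near-equal array medians were read as between-array normalisation. Arrays give no counts, so the number of arrays limits the precision.

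Of 22690 probe sets, 64 controls were left out and 20380 named 1 gene in the array annotation, giving 12393 genes, each by its brightest probe set. Gene IDs of 20351 probe sets matched RefSeq GRCm38.p6, which changed 0 symbols. limma 3.58.1 (R 4.3.3) fitted 4 genotype means to the 8 arrays together. The fit had 4 residual and 7.16 prior degrees of freedom, and p-values were two-sided and adjusted by Benjamini-Hochberg over all genes. Errors are moderated standard errors. The fit was tested on simulated data with independent noise, for the leptin contrast only. The SHP contrasts and the interaction were not simulated. The 9 genes, the lists and the naming rule (list members by smallest adjusted p or highest level, and 3 nearest genes for each of the 9) were chosen with earlier results of these data known. Rdh16f2, Marco, Klk7, Ache, Mmd, Tyr, Prom1, Adipoq and the chromosomal neighbours were named after their values were seen. Alternatives were quantile normalisation, equal medians, a dim-gene filter (mean under the 40th percentile, 4.83), eBayes with trend or robust, other probe set rules, fits to 4 arrays, the replicate number as a block, and each array left out. Leaving out 2 arrays together and using the further probe set were added after seeing the data.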

Additional observations from a re-analysis of the deposited data

Results flagged for a closer look

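Among the list and marker genes named above, Sdc4, Ces1g, Prss2 and Clps passed limma's interaction test, which 0.549% of all genes passed. For these, the difference with SHP loss was unequal between leptin-null and leptin-intact liver. For the heparan sulfate core protein Sdc4 the leptin-null minus leptin-intact difference of SHP effects was 1.68 ± 0.28 (adjusted p = 0.0207). For the carboxylesterase Ces1g it was -1.59 ± 0.24 (adjusted p = 0.0118). For the pancreatic acinar marker Prss2 it was -2.90 ± 0.325 (adjusted p = 0.00115). For Clps of the same list it was -3.13 ± 0.32 (adjusted p = 0.000474). Prss2 read 7.87 and 7.00 on the OB-/- arrays and 4.53 and 4.75 on the double-knockout arrays. Clps read 7.95 and 7.15 on the former and 4.28 and 4.20 on the latter. The part of pancreatic signal on the OB-/- arrays in these differences was not tested. The leptin-null minus leptin-intact difference of SHP effects was 2.27 ± 0.27 for Dmbt1, -1.74 ± 0.34 for Dct and -1.84 ± 0.36 for Bche. It is given without a test because its contrasts chose these genes.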

How the results depend on the processing

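With SHP loss, the differences of the 9 genes kept the direction of each called value under every alternative run. The count of genes called with SHP loss was 40 in leptin-intact liver, 68 with a variance trend, 23 in a fit to the 4 arrays compared and 5 to 95 with 1 array left out (5 and 14 without the wild-type replicates 1 and 2, 67 and 95 without those of SHP-/-, and 26 when one or the other OB-/- array was dropped), and of the 9 genes 3 to 9 passed with 1 array left out. In leptin-null liver it was 265, 80 to 298 with 1 array left out (97 without OB-/- replicate 1, 80 without OB-/- replicate 2 and 162 without OB-/-/SHP-/- replicate 2) and 119 without OB-/- replicate 1 and SHP-/- replicate 1, and 3 to 7 of the 9 genes passed with 1 array left out. The leptin count was 3273, 2355 to 3254 with 1 array left out (3 to 4 of the 9) and 2151 without those 2 arrays, where Dmbt1, Dct and Bche still passed. An array left alone in its genotype is assumed to vary like the others. For leptin loss Serpina12 turned to 0.21 with its further probe set (adjusted p = 0.175). Cap1 turned to 0.73 with its further probe set, 0.34 with the mean of both (adjusted p = 0.0805) and 0.016 without the 2 arrays, and ranged from -0.17 to 0.065 with 1 array left out. It turned without wild-type replicate 1 (0.011), OB-/- replicate 1 (0.065) or OB-/-/SHP-/- replicate 1 (0.056). Rdh9 turned without SHP-/- replicate 2 (0.078), OB-/- replicate 2 (0.043) or OB-/-/SHP-/- replicate 2 (0.028), from a value near 0. The causes were not tested. Same-numbered arrays did not deviate together throughout (r between -0.11 and 0.20, over 0.1 in 3 of 6 pairs). The numbers were not used as pairs in the main fit, but this check cannot exclude a pairing. With the replicate number as a block, 51, 275 and 3270 genes were called with SHP loss in leptin-intact liver, in leptin-null liver and with leptin loss, and 9, 5 and 3 of the 9. What 2 arrays per genotype limit is the size of a change that can be told from 0, with a median SE of 0.15 for a genotype difference.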
